A study of Homo sapiens with 4 samples.

Results

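Translation initiation and elongation factors were examined in the established ovarian cancer line OVCAR8, of human origin, under a scrambled hairpin or hairpins against FAM49B. The members were all protein-coding genes whose names begin with EIF1 to EIF6, EEF1 or EEF2, without the EIF2AK kinases. The rule gave 67 of the 58735 genes listed: 15 elongation factors and their modifiers, 14 eIF3 subunits and 38 other initiation factors and regulators. It used names and biotypes only, not values. Proteins that modify or inhibit a factor and share its name (EEF2K, EIF4EBP1) are therefore included, and EIF4A3, named as a helicase of the eIF4A family, is known for the exon junction complex.

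RNA from 4 libraries was sequenced. Both libraries of shCON came from OVCAR8 cells, genotype WT, given a scrambled GIPZ hairpin, and both libraries of shFAM49B came from the same line given GIPZ hairpins that target FAM49B. The hairpin vectors were lentiviral plasmids delivered with Lipofectamine 3000 (lipofection), and cells were taken after 36 h, per the labels' protocols, whereas the design text calls the knockdown stable. The sources used here do not give the hairpins' sequences, their number or any selection, and 1 cell line limits the comparison to that line. Levels are FPKM, reads per exon length and sequencing depth, on the scale of the deposited table. They rest on 15639559 to 16875353 reads per library. FAM49B, the targeted gene, was at 7.41 and 7.60 FPKM in shCON and 1.06 and 1.02 FPKM in shFAM49B. It was 7.21-fold lower in shFAM49B (limma log2 fold change -2.06 ± 0.08, adjusted p = 0.000540). Of 8 ovarian and epithelial markers, 4 reached a mean of 1 FPKM (KRT8, KRT18, WT1 and EPCAM), while PAX8, MUC16, MSLN and KRT7 were below 1 FPKM in every library. EPCAM (2.94 and 2.96 FPKM in shCON, 0.129 and 0.345 in shFAM49B) and KRT18 passed as lower (limma adjusted p = 0.00224 and 0.0249), and their part in the results was not tested. The summed level of the 8 was 71.7 to 74.3 FPKM in shCON and 62.6 to 63.0 FPKM in shFAM49B. Endothelial markers (4 of 4 below 1 FPKM) summed to 0.444 to 0.479 and 0.190 to 0.198 FPKM, and 1 of 5 leukocyte and 1 of 5 fibroblast markers reached 1 FPKM.

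Initiation brings the small ribosomal subunit, with the initiator tRNA held by eIF2 and GTP, to the capped end of an mRNA. The complex eIF4F (cap-binding eIF4E, scaffold eIF4G and helicase eIF4A) prepares the mRNA, eIF3 bridges it to the subunit, eIF1 and eIF1A monitor the start codon, and eIF5 and eIF5B lead to subunit joining. In elongation, eEF1A delivers aminoacyl-tRNA, the eEF1B complex recharges eEF1A with GTP, and eEF2 moves the ribosome by a codon. Many mRNAs of ribosomal proteins and translation factors begin with a C and a run of pyrimidines, the terminal oligopyrimidine (TOP) motif, through which mTOR and LARP1 are known to govern their translation and storage.

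The letters around the annotated start are shown for 7 factors that were higher in shFAM49B and begin with such a run, and for the 4 factors that were lower. This choice leaves out 12 tested factors that were higher without such a run and 20 without it that did not pass. Each window holds 10 bases before the start and 20 from it, 5′ to 3′ on the gene's strand, from the RefSeq promoter table of GRCh38.p14. Capitals mark the unbroken pyrimidine run from the start base, where that base is a C and at least 4 more pyrimidines follow.
EEF2: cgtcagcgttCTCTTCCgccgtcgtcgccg
EEF1A1: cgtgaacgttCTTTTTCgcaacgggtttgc
EIF3F: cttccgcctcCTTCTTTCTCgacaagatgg
EIF3K: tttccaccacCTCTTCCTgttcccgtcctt
EIF4B: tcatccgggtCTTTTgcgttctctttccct
EIF4A2: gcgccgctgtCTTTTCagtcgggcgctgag
EIF2D: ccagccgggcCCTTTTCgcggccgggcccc
EIF5: ggcgttgttcagtcagagcgagaacattcc
EIF1AX: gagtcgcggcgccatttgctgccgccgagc
EIF4A3: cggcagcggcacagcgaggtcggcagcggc
EIF3J: ccgccgtgctaactcctcgctagctctccc
The windows lie at chr19:3985444-3985473 (minus strand) for EEF2, chr6:73521013-73521042 (minus strand) for EEF1A1, chr11:7987327-7987356 (plus strand) for EIF3F and chr19:38619178-38619207 (plus strand) for EIF3K. Those of EIF4B, EIF4A2 and EIF2D lie at chr12:53006446-53006475 (plus strand), chr3:186783567-186783596 (plus strand) and chr1:206612446-206612475 (minus strand). The 4 without a run lie at chr14:103334227-103334256 (plus strand) for EIF5, chrX:20141819-20141848 (minus strand) for EIF1AX, chr17:80147109-80147138 (minus strand) for EIF4A3 and chr15:44537137-44537166 (plus strand) for EIF3J.

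Of the 67 factors, 61 had a mean of at least 1 FPKM and were tested. In shFAM49B 32 were higher (52.5%) and 4 were lower (6.56%) at an adjusted p under 0.05, and 25 did not pass. Over all 13775 tested genes 26.4% were higher and 15.8% were lower (limma on log2(FPKM + 1), Benjamini-Hochberg adjustment over all of them). The median log2 fold change was 0.29 over the 61 factors and 0.05 over all tested genes. In 48 of the 61 the libraries of the groups did not overlap, as in 74.7% of all tested genes. Fewer cells of a type and less RNA per cell cannot be told apart in these bulk samples. The factors took 2.51% and 2.43% of all reads in shCON and 3.26% and 3.34% in shFAM49B. Most of that difference lay in EEF2 and EEF1A1, which together held 1.31% and 1.24% of reads in shCON and 1.95% and 2.03% in shFAM49B.

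How the libraries are scaled to each other moves these counts. Relative to the deposited values, the median gene's log2 fold change shifted by -0.24 as TPM, where each library's length-scaled values have the same sum, by -0.19 with plain read totals, by -0.06 with median ratios over tested genes and by -0.02 after quantile normalization. Calls over all genes were 62.7% higher among those called as deposited and 26.8% as TPM, 29.2% with read totals, 52.5% with median ratios and 52.0% after quantile normalization. As TPM, 11.6% of all tested genes and 17 of the 61 factors were higher. In that scaling 4362 of the 13775 tested genes and 11 of the 61 factors were lower. Of the 32 factors called higher as deposited, 14 kept the call in all 4 other scalings and 28 had a log2 fold change above 0 in all 4. The other 4, EIF1, EIF2S3, EIF4EBP1 and EIF5A, were below 0 after quantile normalization. EIF4A1, which passed the filter only through shFAM49B, is counted in the 32, the 14 and the 28. All 4 lower factors kept their call in the 4 scalings. Of the 25 factors not called as deposited, EIF4G1, EIF4G2 and EIF4EBP2 passed as lower in 3 of the scalings, EEF2K, EIF1AD and EIF5B in 2 (TPM and read totals), and EIF6 and EIF2S2 in 1.

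Of the 6 tested cytosolic elongation factors 5 were higher in shFAM49B, with a median log2 fold change of 0.57 (all 6 were above 0 as deposited). EEF2 (ENSG00000167658), the translocase and the highest of all 67 factors per length, was at 1647 and 1507 FPKM in shCON and 3033 and 3301 FPKM in shFAM49B. Both shFAM49B libraries lay above both of shCON. EEF2 was 2.01-fold higher (1577 ± 99.4 against 3167 ± 189 FPKM, SD, n = 2, with limma log2 fold change 1.01 ± 0.09, adjusted p = 0.00204), where the fold is the ratio of mean FPKM and ± after a log2 value is its SE. EEF1A1 (ENSG00000156508), the main carrier of aminoacyl-tRNA, was at 928 and 888 FPKM in shCON and 1422 and 1487 FPKM in shFAM49B. Its groups did not overlap and it was 1.60-fold higher (908 ± 28.02 against 1454 ± 45.8 FPKM, SD, n = 2, limma adjusted p = 0.00253). Reads assigned to its 39 annotated pseudogenes came to 1.254% to 1.45% of its own. EEF2 and EEF1A1 kept their calls in the 4 other scalings, with log2 fold changes of 0.76 to 1.07 and 0.43 to 0.61. Without the filter on low levels their limma adjusted p rose to 0.114 and 0.0863.

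EEF1A2, the paralog known from muscle and neurons and from ovarian cancers, was at 108 and 106 FPKM in shCON and 148 and 159.9 FPKM in shFAM49B. It was 1.44-fold higher with no overlap (limma log2 fold change 0.52 ± 0.06, adjusted p = 0.00347), but after quantile normalization its log2 fold change was 0.07 and did not pass. Within the pair its share of summed FPKM was 10.4% and 10.7% in shCON and 9.45% and 9.71% in shFAM49B as deposited. Scaling by a factor per library leaves that share as it is, whereas quantile normalization moved the pair apart (log2 fold changes of 0.58 for EEF1A1 and 0.07 for EEF1A2). Of the exchange factor, the subunit EEF1B2 was at 140.2 and 167 FPKM in shCON and 225 and 249 FPKM in shFAM49B. It was 1.54-fold higher (limma log2 fold change 0.63 ± 0.10, adjusted p = 0.00786), and it did not pass after quantile normalization (log2 fold change 0.18, limma adjusted p = 0.0948), without the filter on low levels (0.0528) or without shFAM49B replicate 2 (0.0577). EEF1D, the other exchange subunit, was at 10.2 and 9.72 FPKM in shCON and 11.8 and 12.5 FPKM in shFAM49B and 1.222-fold higher (limma adjusted p = 0.0252), a call that none of the 4 other scalings kept. EEF1E1, a component of the multi-tRNA synthetase complex, was at 8.16 and 7.73 FPKM in shCON and 10.3 and 7.45 FPKM in shFAM49B. Its shFAM49B libraries lay on both sides of shCON and it did not pass (limma adjusted p = 0.503).

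The modifiers of the elongation factors did not pass the test as deposited. Of 8 genes grouped here 6 were tested. The others were the readthrough genes EEF1AKMT4-ECE2 and EEF1E1-BLOC1S5, listed at 0 in every library. Of the 6 tested, limma and voom called 0 and 1 had an unadjusted p under 0.05 (EEF1AKMT3). The median log2 fold change of the 6 was -0.02. EEF2K, the kinase that inhibits eEF2, was at 10.6 and 10.2 FPKM in shCON and 9.39 and 10.4 FPKM in shFAM49B and its groups overlapped (limma log2 fold change -0.07 ± 0.07, adjusted p = 0.465). As TPM and with read totals EEF2K passed as lower (limma adjusted p = 0.0187 and 0.0234). Per 1000 FPKM of EEF2 there were 6.41 and 6.80 FPKM of EEF2K in shCON and 3.10 and 3.14 in shFAM49B. EEF1AKMT3, an eEF1A methyltransferase, was at 3.06 and 3.21 FPKM in shCON and 3.76 and 4.30 FPKM in shFAM49B without overlap (limma adjusted p = 0.0556), and after quantile normalization it passed as higher (limma adjusted p = 0.0436). EEF1AKMT1, another of these enzymes, was at 3.59 and 3.31 FPKM in shCON and 3.41 and 2.55 FPKM in shFAM49B (limma adjusted p = 0.329). EEF2KMT, EEF1AKMT2 and EEF1AKMT4 had log2 fold changes of 0.05, -0.04 and -0.01. With the modifiers counted, 5 of 12 tested genes of the elongation class were higher and 0 lower by limma, also 0 lower at an unadjusted p under 0.05 or with voom. Their median was 0.20 as deposited but -0.03 as TPM and -0.01 with read totals.

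**Figure D1:**
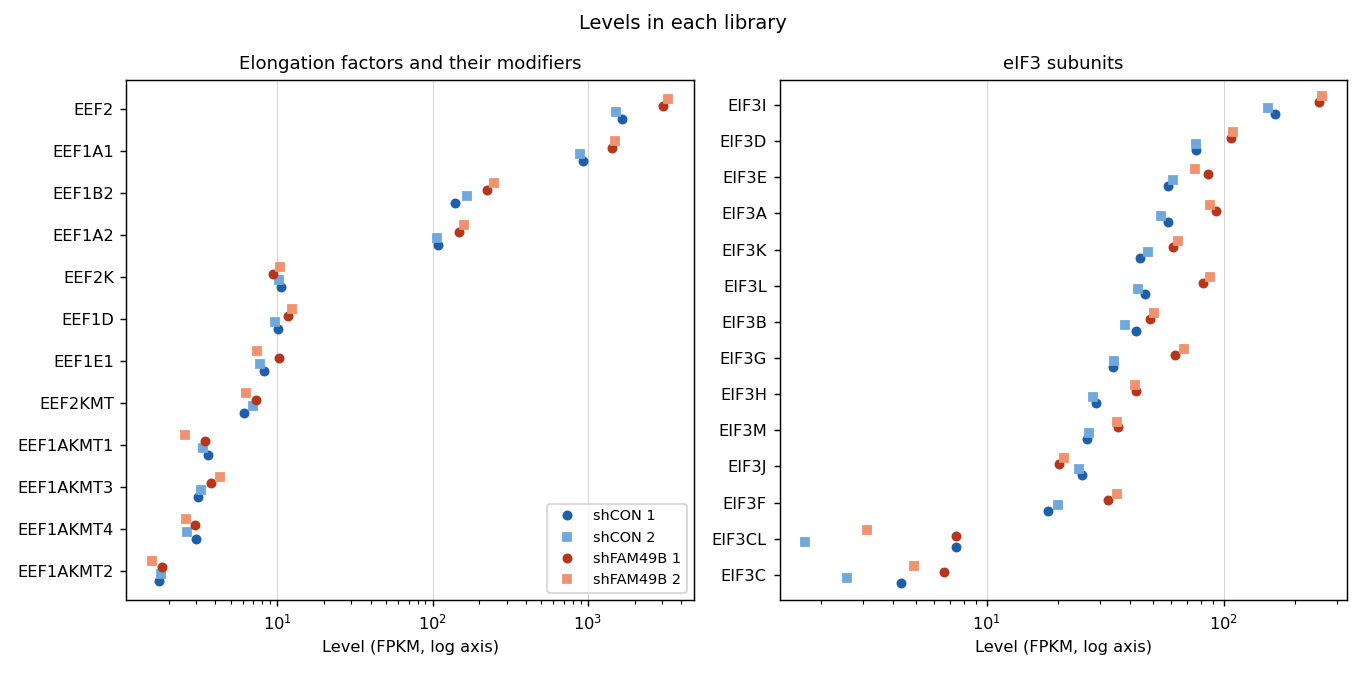
FPKM of each library on log axes for the elongation factors and their modifiers (left) and the eIF3 subunits (right), 1 point per library with 2 libraries per group. EEF2 and EEF1A1 lie far to the right of the other elongation genes, EIF3J is the subunit whose shFAM49B points lie left of shCON, and EIF3C and EIF3CL split by replicate number.

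The eIF3 complex is the largest initiation factor. Its subunits were mostly higher in shFAM49B: 11 of 14 passed as higher, EIF3J passed as lower, and EIF3C and EIF3CL did not pass. Their median change was 0.53 on the log2 scale, and it stayed above 0 in the 4 other scalings, where 7 of the 11 kept the call. The 14 genes took 0.309% and 0.305% of reads in shCON and 0.395% and 0.385% in shFAM49B. As TPM the count higher was 7.

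EIF3G, an RNA-binding subunit, was at 34.0 and 34.3 FPKM in shCON and 62.3 and 67.7 FPKM in shFAM49B, 1.90-fold higher (limma log2 fold change 0.91 ± 0.06, adjusted p = 0.00156). EIF3L was at 46.6 and 43.6 FPKM in shCON and 81.4 and 87.4 FPKM in shFAM49B, 1.87-fold higher (limma log2 fold change 0.89 ± 0.07, adjusted p = 0.00168). EIF3F, one of the MPN-domain subunits, was at 18.1 and 19.9 FPKM in shCON and 32.5 and 35.5 FPKM in shFAM49B, 1.79-fold higher (limma log2 fold change 0.81 ± 0.08, adjusted p = 0.00232). None of these 3 had overlapping groups, which held for 74.7% of all tested genes, and each kept its call in the 4 other scalings. EIF3I, a WD-repeat subunit and the highest of the complex, was at 164 and 154 FPKM in shCON and 251 and 258 FPKM in shFAM49B, 1.60-fold higher (limma log2 fold change 0.67 ± 0.06, adjusted p = 0.00222). EIF3A, the large scaffold subunit, was at 58.2 and 54.4 FPKM in shCON and 92.9 and 87.1 FPKM in shFAM49B and also 1.60-fold higher (limma adjusted p = 0.00246). EIF3H, EIF3D, EIF3K, EIF3E and EIF3M were 1.49, 1.42, 1.36, 1.36 and 1.33-fold higher. EIF3D is known to bind the cap of some mRNAs, and EIF3H, EIF3E and EIF3M belong with EIF3F to the PCI and MPN part. Of these 5, EIF3H and EIF3D kept the call in the 4 other scalings, while EIF3M lost it as TPM, EIF3K as TPM and after quantile normalization, and EIF3E in these and with read totals.

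EIF3B, the scaffold partner of EIF3A, was at 42.4 and 38.4 FPKM in shCON and 48.9 and 50.5 FPKM in shFAM49B and moved least among those called higher (1.23-fold, limma log2 fold change 0.29 ± 0.07, adjusted p = 0.0222). EIF3B did not pass as TPM (log2 fold change 0.06), with read totals (0.07) or after quantile normalization (0.03). It also did not pass without the filter on low levels, nor in the fits without shCON replicate 2, shFAM49B replicate 1 and replicate 2 (limma adjusted p = 0.0855, 0.0724 and 0.106). EIF3J, a loosely bound accessory subunit that acts at the mRNA channel of the small subunit, was at 25.3 and 24.5 FPKM in shCON and 20.1 and 21.2 FPKM in shFAM49B. Both shFAM49B libraries lay below both of shCON, 1.20-fold lower (limma log2 fold change -0.26 ± 0.06, adjusted p = 0.0216). The 4 other scalings gave EIF3J log2 fold changes of -0.51 to -0.32 and kept the call, while leaving out any 1 library ended it (limma adjusted p from 0.0555 to 0.102). For each FPKM of EIF3A there were 0.435 and 0.451 FPKM of EIF3J in shCON and 0.217 and 0.244 in shFAM49B.

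EIF3C and EIF3CL lie on chromosome 16 and encode near-identical copies of the same scaffold subunit, so the division of reads between them is uncertain. EIF3C was at 4.35 and 2.57 FPKM in shCON and 6.57 and 4.94 FPKM in shFAM49B (limma adjusted p = 0.0729), and it passed as higher with voom, without shCON replicate 1 and with a replicate block. EIF3CL was at 7.42 and 1.71 FPKM in shCON and 7.41 and 3.11 FPKM in shFAM49B (limma adjusted p = 0.713). In both genes and both groups replicate 1 was above replicate 2, and the sum of the pair was 11.8 and 4.29 FPKM in shCON and 14.0 and 8.05 FPKM in shFAM49B. Among the other 12 subunits, ordered by level per length, EIF3I and EIF3D came first in both groups, and EIF3H and EIF3M kept places 9 and 10. EIF3L moved from place 6 to 4, EIF3G from 8 to 6 and EIF3A from 4 to 3. EIF3E moved from place 3 to 5, EIF3K from 5 to 7 and EIF3B from 7 to 8. EIF3J moved from place 11 to 12, changing places with EIF3F. EIF3M and EIF3J were neighbours in shCON, at 26.8 ± 0.460 and 24.9 ± 0.553 FPKM, and in shFAM49B they stood at 35.5 ± 0.218 and 20.7 ± 0.794 FPKM (SD, n = 2). The highest of the 12 exceeded the lowest by 9.10 and 7.74 times in shCON and by 12.5 and 12.2 times in shFAM49B.

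Outside eIF3, 16 of 35 tested initiation factors were higher, 3 were lower and 16 did not pass. The median of the 35 on the log2 scale was 0.19 as deposited and -0.02 as TPM. Together they took 0.780% and 0.760% of reads in shCON and 0.783% and 0.779% in shFAM49B, ranges that overlap. The helicase eIF4A and its cofactors held the largest rises. EIF4B, which stimulates the helicase and is a target of S6 kinase, was at 88.3 and 82.4 FPKM in shCON and 172 and 174 FPKM in shFAM49B. It was 2.03-fold higher without overlap (85.4 ± 4.17 against 173 ± 1.67 FPKM, SD, n = 2, limma log2 fold change 1.01 ± 0.06, adjusted p = 0.00119). EIF4A2, the helicase paralog, was at 43.4 and 45.6 FPKM in shCON and 90.7 and 86.7 FPKM in shFAM49B, 1.99-fold higher (limma log2 fold change 0.98 ± 0.06, adjusted p = 0.00123). EIF4H, a smaller cofactor related to EIF4B, was at 156 and 155 FPKM in shCON and 217 and 224 FPKM in shFAM49B, 1.42-fold higher (limma log2 fold change 0.50 ± 0.05, adjusted p = 0.002996). EIF4B and EIF4A2 kept their calls in the 4 other scalings, and EIF4H did in 3 of 4. EIF4B stood at 0.565 and 0.532 FPKM for each FPKM of EIF4H in shCON and at 0.793 and 0.778 in shFAM49B.

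EIF4A1, the main eIF4A helicase in many cells, was listed at 0.814 and 0.549 FPKM in shCON and 2.36 and 1.90 FPKM in shFAM49B, on 73, 54, 192 and 151 reads. It passed the filter only through shFAM49B, and 48.6% of its exon bases lie in exons of other annotated genes, so its 3.12-fold higher level (limma log2 fold change 0.90 ± 0.16, adjusted p = 0.0101) is uncertain. Reads assigned to its 13 pseudogenes came to 104% to 267% of its own. As listed, EIF4A2 made up 97.5% to 98.8% of the pair in every library. EIF4A3, the exon junction helicase, was at 34.0 and 35.3 FPKM in shCON and 28.1 and 29.1 FPKM in shFAM49B. Both shFAM49B libraries lay below shCON, 1.21-fold lower (limma log2 fold change -0.27 ± 0.06, adjusted p = 0.0161), and leaving out any 1 library ended the call (limma adjusted p from 0.0534 to 0.0784).

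The cap-binding and scaffold parts of eIF4F gave few calls. EIF4E, the cap-binding protein, was at 4.08 and 4.10 FPKM in shCON and 4.92 and 4.66 FPKM in shFAM49B. The groups did not overlap and the difference did not pass (limma log2 fold change 0.19 ± 0.07, adjusted p = 0.0928), though EIF4E passed as higher with voom (adjusted p = 0.0180). EIF4E2, a paralog that represses translation of some mRNAs, was at 7.48 and 6.81 FPKM in shCON and 9.32 and 8.47 FPKM in shFAM49B and 1.246-fold higher (limma adjusted p = 0.0391), a call that none of the 4 other scalings kept. EIF4E3 was at 3.65 and 3.41 FPKM in shCON and 2.90 and 3.74 FPKM in shFAM49B with overlapping groups. Of the summed FPKM of these paralogs, EIF4E2 held 49.2% and 47.6% in shCON and 54.4% and 50.2% in shFAM49B, and EIF4E held 26.8% to 28.7% over the 4 libraries. Of the scaffolds 0 of 3 passed by limma, while voom and an unadjusted p under 0.05 gave 1 (EIF4G3). EIF4G1 was at 136 and 121 FPKM in shCON and 115 and 124 FPKM in shFAM49B (limma adjusted p = 0.336), and it passed as lower as TPM, with read totals and after quantile normalization. EIF4G2, which lacks the eIF4E site, was at 93.9 and 88.5 FPKM in shCON and 91.3 and 91.9 FPKM in shFAM49B (limma adjusted p = 0.937). In the same 3 scalings EIF4G2 also passed as lower, with log2 fold changes of -0.24, -0.22 and -0.36 (limma adjusted p = 0.0177, 0.0223 and 0.00964). EIF4G3 was at 9.32 and 9.04 FPKM in shCON and 10.2 and 10.52 FPKM in shFAM49B (limma adjusted p = 0.0865), and its share of the pair with EIF4G1 was 6.41% and 6.93% in shCON and 8.18% and 7.80% in shFAM49B.

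Inhibitors of eIF4E were led by EIF4EBP1, the mTOR-regulated 4E-BP1, at 109 and 129.98 FPKM in shCON and 145 and 156 FPKM in shFAM49B. It passed as 1.26-fold higher (limma log2 fold change 0.33 ± 0.10, adjusted p = 0.0422), kept that call in none of the 4 other scalings and turned to -0.11 on the log2 scale with quantile normalization. Its ratio to EIF4E in FPKM was 26.8 and 31.7 in shCON and 29.5 and 33.5 in shFAM49B, which overlap. EIF4EBP2 was at 34.8 and 35.6 FPKM in shCON and 35.1 and 36.4 FPKM in shFAM49B and EIF4ENIF1, the eIF4E transporter, at 4.45 and 4.03 FPKM in shCON and 4.36 and 4.55 FPKM in shFAM49B. Neither passed as deposited (limma adjusted p = 0.773 and 0.584), but EIF4EBP2 passed as lower as TPM, with read totals and after quantile normalization (log2 fold changes of -0.22, -0.20 and -0.20, limma adjusted p = 0.0227, 0.0303 and 0.0304). EIF4EBP3, below the test's minimum, was listed at 0.772 and 1.41 FPKM in shCON and 0.283 and 0.193 FPKM in shFAM49B, and 73.4% of its exon bases belong also to the ANKHD1-EIF4EBP3 readthrough.

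Of eIF2, the carrier of the initiator tRNA, the gamma subunit was called and the others were not. EIF2S3 was at 139 and 131 FPKM in shCON and 173 and 169 FPKM in shFAM49B, 1.27-fold higher (limma log2 fold change 0.34 ± 0.06, adjusted p = 0.00905). It did not pass as TPM or with read totals, and with quantile normalization its change was -0.13 on the log2 scale (limma adjusted p = 0.139). EIF2S1, the alpha subunit that the stress kinases phosphorylate, was at 18.3 and 17.3 FPKM in shCON and 20.1 and 19.9 FPKM in shFAM49B (limma adjusted p = 0.0774), and EIF2S2, the beta subunit, had a log2 fold change of 0.10 as deposited and passed as lower after quantile normalization (-0.22, limma adjusted p = 0.0222). EIF2S3B, a copy of EIF2S3 on chromosome 12, was 1.38-fold higher (limma adjusted p = 0.0110). Its annotated start window matched that of EIF2S3 at 28 of 30 bases, and reads of such copies cannot be divided with certainty. The factors outside the complex follow. EIF2D, which can place tRNA without eIF2, was at 12.1 and 11.96 FPKM in shCON and 17.8 and 18.2 FPKM in shFAM49B, 1.498-fold higher (limma log2 fold change 0.55 ± 0.06, adjusted p = 0.00272). EIF2A, an alternative tRNA carrier, was at 24.8 and 24.6 FPKM in shCON and 34.6 and 32.8 FPKM in shFAM49B, 1.36-fold higher (limma log2 fold change 0.43 ± 0.06, adjusted p = 0.00450). Of these 6 genes EIF2D alone kept its call in all 4 other scalings.

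The exchange factor eIF2B, which restores GTP on eIF2, had 2 of 5 subunits higher and 0 lower by limma (0 lower also at an unadjusted p under 0.05 and with voom), with a median log2 fold change of 0.24. EIF2B3, the gamma subunit, was at 12.9 and 11.4 FPKM in shCON and 17.5 and 17.3 FPKM in shFAM49B, 1.44-fold higher (limma log2 fold change 0.49 ± 0.08, adjusted p = 0.00675). EIF2B2, the beta subunit, was at 6.79 and 6.14 FPKM in shCON and 8.44 and 8.27 FPKM in shFAM49B, 1.29-fold higher (limma adjusted p = 0.0194). EIF2B5, the catalytic epsilon subunit, was at 7.09 and 7.47 FPKM in shCON and 8.21 and 9.32 FPKM in shFAM49B and did not pass (limma adjusted p = 0.0661). EIF2B5 did pass as higher with voom (adjusted p = 0.00960), which called 3 of the 5 subunits higher, and with a minimum of 5 FPKM (limma adjusted p = 0.0373). EIF2B4 and EIF2B1 had log2 fold changes of 0.19 and 0.11. In all 5 the groups did not overlap as deposited, as in 74.7% of all tested genes. EIF2B3 kept its call in the 4 other scalings, and EIF2B2 lost it as TPM and with read totals.

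The 2 largest falls were in factors of start-codon recognition. EIF5 (ENSG00000100664), the GTPase-activating protein for eIF2, was at 35.4 and 37.1 FPKM in shCON and 19.1 and 18.1 FPKM in shFAM49B. Both shFAM49B libraries lay far below shCON, 1.95-fold lower (36.2 ± 1.19 against 18.6 ± 0.689 FPKM, SD, n = 2, limma log2 fold change -0.92 ± 0.06, adjusted p = 0.00140). EIF1AX (ENSG00000173674), the eIF1A of the X chromosome, was at 65.7 and 60.3 FPKM in shCON and 38.3 and 35.4 FPKM in shFAM49B. It was 1.71-fold lower without overlap (63.0 ± 3.84 against 36.8 ± 2.05 FPKM, SD, n = 2, limma log2 fold change -0.76 ± 0.07, adjusted p = 0.00233). The 4 other scalings gave -1.19 to -0.99 for EIF5 and -1.03 to -0.83 for EIF1AX, and both passed without any 1 library. Reads on the 2 pseudogenes of EIF1AX came to 8.50% to 11.6% of its own. Within a library EIF5 stood at 0.255 and 0.282 FPKM per FPKM of EIF2S3 in shCON and at 0.110 and 0.107 in shFAM49B. EIF1AX stood at 0.477 and 0.404 FPKM per FPKM of EIF1 in shCON and at 0.218 and 0.191 in shFAM49B.

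EIF1, the partner of eIF1A in start-site fidelity, was at 138 and 149 FPKM in shCON and 175 and 186 FPKM in shFAM49B, 1.26-fold higher (limma log2 fold change 0.33 ± 0.07, adjusted p = 0.0148), but the call depended on the scaling. As TPM and with read totals EIF1 did not pass (limma adjusted p = 0.295 and 0.227), and after quantile normalization it passed as lower (log2 fold change -0.14, limma adjusted p = 0.0481). Its paralog EIF1B was at 19.9 and 21.2 FPKM in shCON and 24.0 and 24.9 FPKM in shFAM49B, 1.19-fold higher (limma adjusted p = 0.0281), and no other scaling kept that call. EIF5A, the hypusine-bearing factor that helps ribosomes through proline stretches, was at 197 and 169 FPKM in shCON and 239.6 and 249 FPKM in shFAM49B. It was 1.34-fold higher without overlap (limma log2 fold change 0.42 ± 0.09, adjusted p = 0.0151). EIF5A did not pass as TPM or with read totals (limma adjusted p = 0.116 and 0.0935), and with quantile normalization its change was -0.05 on the log2 scale (limma adjusted p = 0.776). EIF5AL1, a copy of EIF5A on chromosome 10, was at 4.49 and 3.87 FPKM in shCON and 5.32 and 5.64 FPKM in shFAM49B (limma adjusted p = 0.0355). Among the 4 other scalings EIF5AL1 kept its call after quantile normalization alone, and its reads may be shared with EIF5A. EIF5B, the subunit-joining GTPase, was at 23.4 and 19.02 FPKM in shCON and 18.8 and 17.8 FPKM in shFAM49B and did not pass (limma adjusted p = 0.184). EIF5B passed as lower as TPM (log2 fold change -0.45, limma adjusted p = 0.0266), with read totals (-0.41, 0.0305), with voom (-0.21, 0.0252) and without shCON replicate 2 (-0.34, 0.0459). EIF6, which keeps the large subunit apart, and EIF5A2 had log2 fold changes of 0.06 and 0.06 and did not pass, nor did EIF1AD at -0.08. As TPM, EIF6 passed as lower (-0.18, limma adjusted p = 0.0454), as did EIF1AD (-0.33, 0.0185), which also passed with read totals (-0.28, 0.0223).

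The smaller changes rested on all 4 libraries, since leaving out 1 library ended 9 to 14 of the 36 calls. Without shCON replicate 1, EIF3E, EIF4A3, EIF5AL1, EIF1, EIF2S3B, EEF1D, EIF4E2, EIF3J, EIF4EBP1 and EIF1B did not pass (limma adjusted p from 0.0514 to 0.127). Without shCON replicate 2 the calls that ended were EIF1B, EIF2S3B, EIF3J, EIF4A3, EIF3B, EIF2B2, EEF1D, EIF5AL1 and EIF4E2 (0.0620 to 0.179). Without shFAM49B replicate 1 they were EIF4A1, EIF1, EEF1D, EIF2S3, EIF5A, EIF1B, EIF4A3, EIF3B, EIF2B2, EIF5AL1, EIF3J, EIF4EBP1 and EIF4E2 (0.0521 to 0.145). Without shFAM49B replicate 2 they were EIF2S3, EIF3J, EIF4A3, EEF1B2, EIF2S3B, EIF4E2, EIF2B2, EIF1, EIF5A, EEF1D, EIF3B, EIF1B, EIF5AL1 and EIF4EBP1 (0.0549 to 0.189). In these fits the lone library of a group is assumed to vary like the other group. The falls of EIF5 and EIF1AX, and the rises of EEF2, EEF1A1, EIF4B, EIF4A2 and of EIF3G, EIF3L, EIF3F, EIF3I, EIF3A, EIF3H, EIF3D, EIF3K and EIF3M, passed in all 4 of them.

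**Figure D2:**
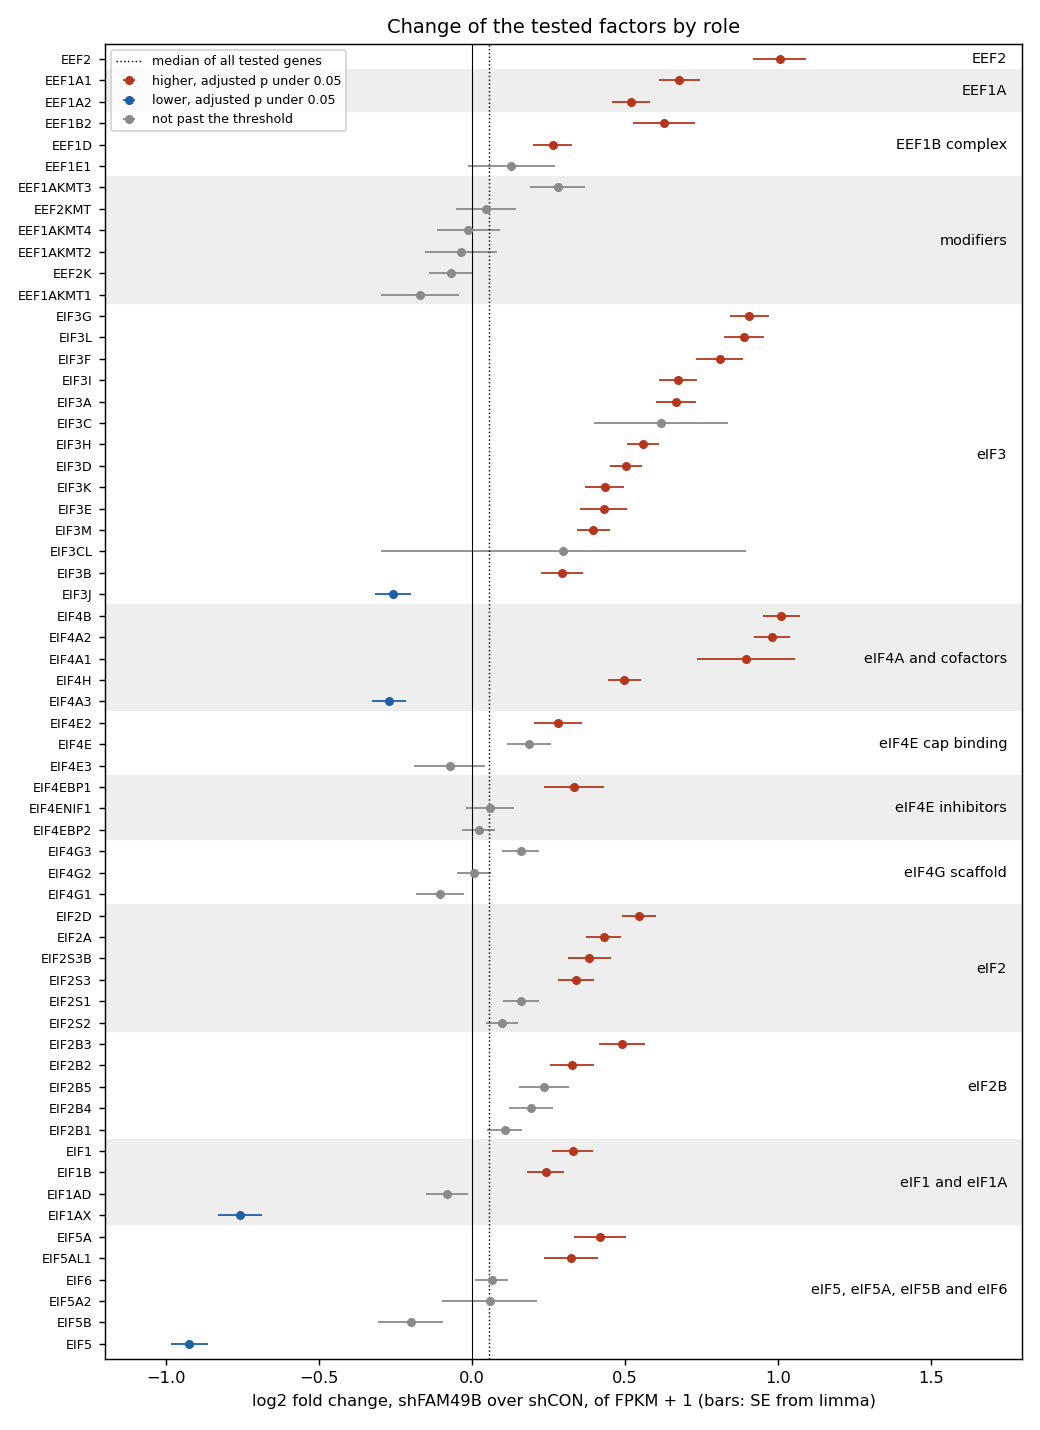
Log2 fold change of FPKM + 1 (shFAM49B over shCON, 2 libraries each) for the 61 tested factors grouped by role, with bars for the SE from limma and a dotted line at the median of all tested genes, 0.05. EEF2, EIF4B and EIF4A2 lie near 1, most eIF3 subunits between 0.29 and 0.91, and EIF5 and EIF1AX at -0.92 and -0.76.

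**Figure D3:**
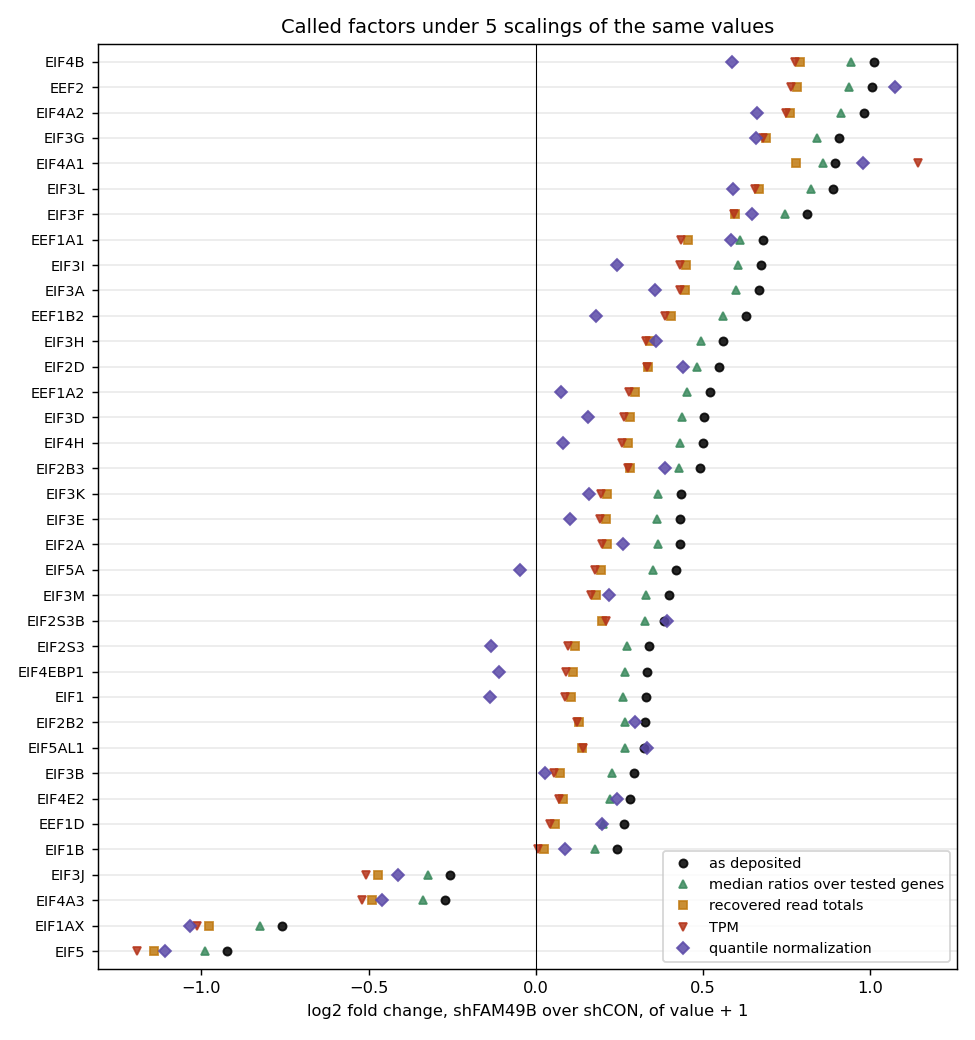
Log2 fold change of value + 1 of the 36 factors called as deposited under 5 scalings of the same libraries, 1 symbol per scaling. EIF5, EIF1AX, EIF4A3 and EIF3J stay below 0 in all 5, while EIF5A, EIF2S3, EIF4EBP1 and EIF1 cross 0 after quantile normalization.

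The start letters were then set beside these changes. The RefSeq table held a promoter for 54 of the 67 factors. It held none for EEF1A2, EEF1AKMT1, EEF1AKMT3, EEF1D, EEF2KMT, EIF2S2, EIF3A, EIF3CL, EIF3E, EIF3G, EIF3H, EIF3L and EIF4EBP1. A C at the start followed by 4 bases that are each C or T, read on the gene's strand, was found in 12 of the 54 (22.2%), in 1104 of all 27305 promoters of the table (4.04%) and in 4.67% of promoters of protein-coding genes. By class it was in 4 of 8 eIF3 subunits (EIF3D, EIF3F, EIF3K and EIF3M), 2 of 10 elongation genes (EEF1A1 and EEF2) and 6 of 36 other initiation factors (EIF4A2, EIF4B, EIF2A, EIF2D, EIF2S3 and EIF2S3B). EIF2S3 and its copy EIF2S3B, identical at 20 of 20 bases from the start, are both counted among the 12. A match describes the letters at 1 annotated start and is no measure of the starts used in these cells.

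All 12 factors with these start letters were higher in shFAM49B, with log2 fold changes of 0.34 to 1.01 and a median of 0.52. Both EIF2S3 and its copy EIF2S3B are among the 12, and their reads cannot be divided with certainty. Of the 36 tested factors with a promoter and other letters, 12 were higher, 4 were lower and 20 did not pass, with a median of 0.14. EIF4A1, 1 of those higher, passed the filter only through shFAM49B. The same split over the 9104 tested protein-coding genes with a promoter in the table had 52.7% higher and 8.53% lower among 516 genes with the letters (median 0.29), and 27.9% higher and 15.5% lower among 8588 without (median 0.06). The counts of the 12 called higher in the other scalings were 7 as TPM, 10 with read totals, 10 after quantile normalization and 12 with median ratios. For the 516 genes with the letters the corresponding shares were 32.9%, 34.5%, 39.7% and 47.3%. When the C and its 4 following bases could lie anywhere within the 5 bases before the start and the first 10 bases from it, 22 of the 54 held them. The share over all promoters was 21.1%. Of the 20 tested among these, 14 were higher and EIF3J was lower.

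**Figure D4:**
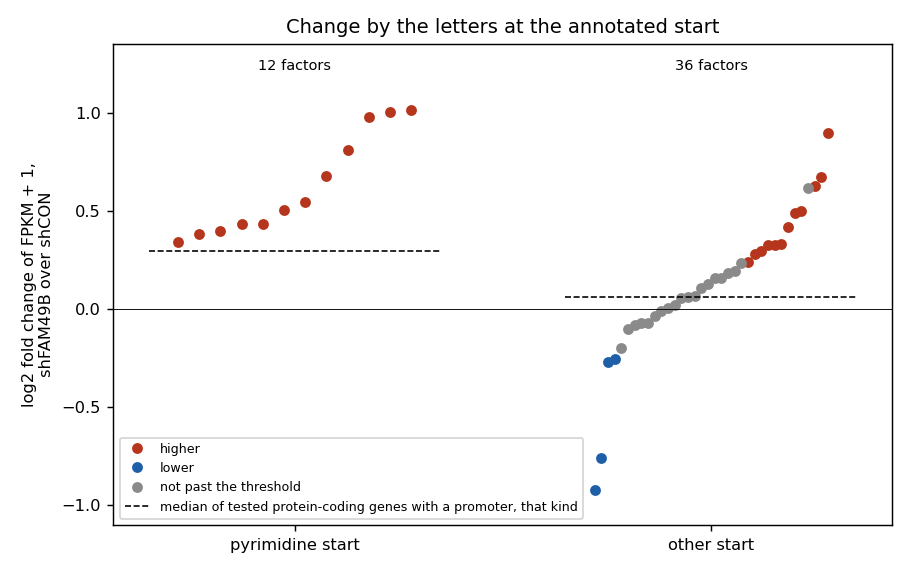
Log2 fold change of FPKM + 1 (shFAM49B over shCON) of the 48 tested factors with a promoter in the table, split by the letters at the annotated start, with points coloured by call and dashed lines at the medians of each kind over the 9104 tested protein-coding genes with a promoter. The 12 factors with a pyrimidine start lie between 0.34 and 1.01, and the 4 lower factors are among the 36 with another start.

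CACGTG, the E-box bound by MYC and related factors, reads the same on both strands and was searched in the 250 bases before and 50 after the start. It was in 14 of the 54 promoters (25.9%) and in 7.43% of all promoters, or 8.94% of those of protein-coding genes. Of the 12 tested factors that held it, 6 were higher, EIF4A3 was lower and 5 did not pass (median log2 fold change 0.21). Of the 36 tested without it, 18 were higher and 3 were lower (median 0.29). EIF3F, EIF3K and EIF4B held both the E-box and the pyrimidine start. Over the 9104 tested protein-coding genes with a promoter in the table, 29.6% of those with the E-box and 29.2% of those without were higher.

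Of the 67 factors 6 fell under the minimum for the test: EEF1G, EIF4EBP3, EIF4E1B, EIF1AY and the readthrough genes EEF1AKMT4-ECE2 and EEF1E1-BLOC1S5. EEF1G, the gamma subunit of eEF1B, was listed at 0 in every library. All but 2 of its 2716 exon bases (99.9%) also lie in exons of AP002990.1, a protein-coding gene on the same strand that had 52, 72, 48 and 34 reads. A level of EEF1G therefore cannot be read from these values. Exons of EIF3L overlap those of other genes over 51.8% of their bases, 41.1% with AL022311.1 on the same strand, which had 45 to 125 reads beside 3376 to 5616 for EIF3L. In all, 41 factors shared some exon bases with another gene and 5 shared over 50%. The sources used here do not say whether reads in shared exons were dropped or divided. A set of 11 factors, chosen after the values were seen, was then left out. It held those that share over 40% of exon bases and EIF3C, EIF3CL, EIF5AL1 and EIF2S3B, while EIF5A and EIF2S3 stayed in. Of the 54 tested factors that remained, 28 were higher and 4 lower.

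**Figure D5:**
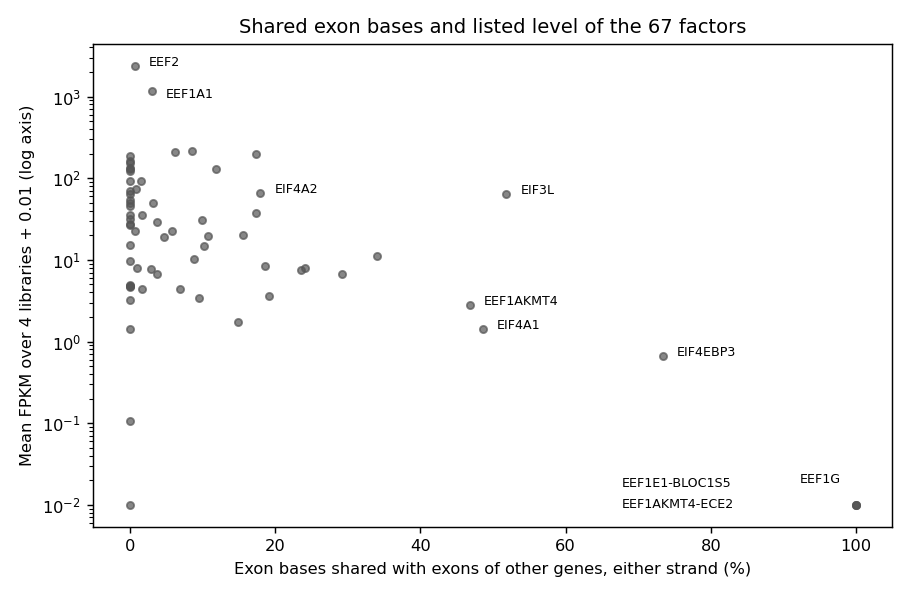
Mean FPKM over the 4 libraries plus 0.01 (log axis) against the percentage of exon bases shared with exons of other genes on either strand (GENCODE 29, GRCh38), 1 point per factor. EEF1G and both readthrough genes lie at 99.9% or 100% and are listed at 0, EIF4A1 lies at 48.6%, and EIF3L at 51.8% keeps a level near that of EIF4A2.

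Around the factors, 6 lists of 52 genes with related roles were examined, and 51 were tested. Of these 17 were higher (33.3%, beside 26.4% of all tested genes) and 6 were lower (11.8%, beside 15.8%), with a median log2 fold change of 0.03. Among poly(A) binding and accessory factors 5 of 11 were higher and 1 was lower. PABPC1, the main poly(A)-binding protein, was at 319.8 and 306 FPKM in shCON and 493 and 519 FPKM in shFAM49B, 1.62-fold higher (limma log2 fold change 0.69 ± 0.06, adjusted p = 0.00220), and with quantile normalization its change was -0.08 on the log2 scale. PABPC4 was at 51.6 and 49.03 FPKM in shCON and 71.5 and 73.6 FPKM in shFAM49B, 1.44-fold higher (limma adjusted p = 0.00311), and passed in the 4 other scalings. ABCE1, which splits ribosomes for the next round of initiation, was at 44.8 and 43.7 FPKM in shCON and 28.6 and 27.3 FPKM in shFAM49B. It was 1.58-fold lower without overlap (limma log2 fold change -0.64 ± 0.06, adjusted p = 0.00211) and kept the call in the 4 other scalings.

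Of the eIF2alpha kinases and phosphatase subunits, 2 of 6 were higher (33.3%) and 1 was lower (16.7%), beside 26.4% and 15.8% of all tested genes. EIF2AK1, the heme-regulated kinase, was at 34.96 and 34.2 FPKM in shCON and 55.5 and 58.3 FPKM in shFAM49B, 1.65-fold higher (limma log2 fold change 0.70 ± 0.06, adjusted p = 0.00184), and it kept the call in the 4 other scalings. EIF2AK4, the amino acid sensor GCN2, was 1.20-fold higher (limma adjusted p = 0.0493), a call that none of the 4 other scalings kept, and PPP1R15B, which directs dephosphorylation of eIF2alpha, was 1.15-fold lower (limma adjusted p = 0.0322). Of 13 genes of mTOR and MNK control 5 were higher (38.5%) and 2 lower (15.4%). The 5 were MLST8, RHEB, MTOR, TSC2 (limma adjusted p = 0.0224) and RPS6KB2 (0.0424). TSC2 kept its call in 2 of the 4 other scalings and RPS6KB2 in none. LARP1 did not pass as deposited (limma log2 fold change -0.16 ± 0.07, adjusted p = 0.111) but passed as lower in the 4 other scalings (-0.49 to -0.23). TSC2, RPS6KB2 and LARP1 were named after their values were seen. MLST8, a subunit of the mTOR complexes, was at 23.3 and 23.3 FPKM in shCON and 31.4 and 34.5 FPKM in shFAM49B, 1.42-fold higher (limma log2 fold change 0.48 ± 0.07, adjusted p = 0.00493). RHEB, the GTPase that activates mTORC1, was at 13.8 and 15.0 FPKM in shCON and 19.6 and 20.7 FPKM in shFAM49B, 1.40-fold higher (limma adjusted p = 0.00617), and MTOR was 1.24-fold higher (limma adjusted p = 0.0155), a call it kept in 1 of the 4 other scalings. The lower pair, named after its values were seen, was RPS6KB1 and MKNK2, kinases of ribosomal protein S6 and of eIF4E, at 7.23 and 6.54 against 5.43 and 5.03 FPKM and 43.7 and 44.6 against 36.1 and 38.9 FPKM. Leaving out any 1 library ended the calls of EIF2AK4, PPP1R15B, RPS6KB1 and MKNK2 (limma adjusted p from 0.0547 to 0.226), and MTOR did not pass without either shCON library or shFAM49B replicate 2 (0.0674 to 0.0733).

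The enzymes that make hypusine on eIF5A and diphthamide on eEF2 had 2 of 8 tested genes higher and 1 lower. DPH7 was at 6.11 and 6.25 FPKM in shCON and 8.96 and 9.69 FPKM in shFAM49B (limma log2 fold change 0.52 ± 0.07, adjusted p = 0.00444), DPH5 rose by 0.40 on the log2 scale (limma adjusted p = 0.00807, not past the threshold as TPM or with read totals), and DPH3 was at 8.84 and 8.50 FPKM in shCON and 6.30 and 5.72 FPKM in shFAM49B (limma log2 fold change -0.47 ± 0.07, adjusted p = 0.00706). All 3 act in diphthamide synthesis. Of 8 mitochondrial factors 3 were higher and 0 lower by limma (0 lower also at an unadjusted p under 0.05 and with voom), led by TUFM, the mitochondrial counterpart of eEF1A, at 128 and 127 FPKM in shCON and 181 and 197 FPKM in shFAM49B (1.48-fold, limma log2 fold change 0.56 ± 0.06, adjusted p = 0.00337), which after quantile normalization did not pass (log2 fold change 0.09). GFM2, a factor of mitochondrial ribosome recycling, and MTIF3, a mitochondrial initiation factor, rose by 0.34 and 0.34 on the log2 scale (limma adjusted p = 0.0120 and 0.0135), and neither passed as TPM or with read totals. Of 5 termination and rescue factors 0 were higher by limma, at an unadjusted p under 0.05 or with voom, and 1 was lower, GSPT2, a paralog of release factor eRF3, at 4.25 and 3.90 FPKM in shCON and 2.75 and 2.17 FPKM in shFAM49B (limma log2 fold change -0.56 ± 0.11, adjusted p = 0.0146). ETF1, the release factor eRF1, and PELO, a rescue factor, did not pass (limma adjusted p = 0.158 and 0.256), though ETF1 passed as lower as TPM, with read totals and after quantile normalization (-0.39 to -0.35 on the log2 scale). Single libraries decided several of these calls. DPH3 did not pass without shCON replicate 1 (limma adjusted p = 0.0508), GFM2 without shCON replicate 1 or either shFAM49B library (0.0555 to 0.0658), MTIF3 without shCON replicate 2 or either shFAM49B library (0.0583 to 0.0703), and GSPT2 without either shCON library or shFAM49B replicate 2 (0.0545 to 0.0853).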

How the data were processed

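Gene levels of 4 OVCAR8 libraries, 2 per group by sample title, were taken from the table of FPKM values that the authors deposited with gene coordinates, length and biotype. Mouse builds (GRCm38, mm10) are named in the submitters' processing notes, but all 58735 identifiers match human GENCODE release 29 with the same start and end, so coordinates are on GRCh38. For the aligner and the counting method the sources used here give no name. Multiplied by gene length, 100% of values were whole multiples of 1 unit per library (tolerance 0.001 of a unit), which gave back 15639559 and 16875353 reads in shCON and 16288871 and 16290200 in shFAM49B. The denominators of the deposited FPKM were 1.08, 1.10, 0.941 and 0.919 times these totals, so the authors' values carry a factor between libraries.

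Levels were tested with limma 3.58.1 (R 4.3.3) on log2(FPKM + 1), 2-sided, with a mean-variance trend, at a mean of at least 1 FPKM (13775 genes, 11400 protein coding), with Benjamini-Hochberg adjustment and a threshold of 0.05. Log2 fold changes on this scale understate the change of low genes. The procedure was tested on simulated data. Residual degrees of freedom were 2, with 3.32 added by moderation. No label ties a group's libraries to separate cultures, so the p-values reflect the spread of these samples alone, and that spread may be technical. With 2 libraries per group no permutation test could pass. Members and lists were chosen with earlier results of these data known. Any member may be named. Values per library are given for the cytosolic elongation factors, the eIF3 subunits with the largest and smallest changes, up to 3 genes of smallest p in each other role or related list, and the paralog groups. Alternatives changed the pseudocount, the filter, the scaling, the model (voom on recovered reads, a replicate block) and the libraries used. Median ratios and the removal of factors with shared reads were added after seeing the data.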

Additional observations from a re-analysis of the deposited data

How the results depend on the processing

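The 13 alternatives moved counts, and some scalings also turned the sign of class medians and of single genes. Among all genes called, 62.7% were higher as deposited and 26.8% as TPM. Scaling, the filter and single libraries each ended calls: as TPM, with read totals, after quantile normalization and with median ratios (the last added after seeing the data), 21, 24, 23 and 31 of the 36 called factors kept their call, as did 22 without the filter on low values and 22 to 27 without 1 library. FAM49B stayed lower in every alternative. The count of factors higher was 19 without the filter on low values, 17 as TPM, 20 with read totals and 20 after quantile normalization, and the count lower was 11, 10 and 9 in these 3 scalings. Elongation genes had 1 higher without the filter (EEF1A2) and 3 after quantile normalization (EEF2 and EEF1A1, which kept their call, and EEF1AKMT3), and 1 lower (EEF2K) as TPM and 1 with read totals. For eIF3 7 were higher as TPM and 0 lower without the filter. Other initiation factors had 8 higher without the filter, 6 as TPM, 7 with read totals and 9 after quantile normalization, and 9, 8 and 8 lower in these 3 scalings. Related genes had 7, 7 and 10 higher and 21, 20 and 12 lower in them, and 2 lower without the filter. Over all genes 2185 were higher and 1378 lower without the filter, and 1322 were lower at a minimum of 5 FPKM. In the scalings the counts higher and lower were 1597 and 4362 as TPM, 1722 and 4173 with read totals, and 2647 and 2446 after quantile normalization. Leaving out 1 library gave 20 to 25 factors higher and 2 to 3 lower, 3 to 4 elongation genes higher, 10 to 11 eIF3 subunits higher and 0 lower, 7 to 11 other initiation factors higher and 2 to 3 lower, 9 to 11 related genes higher and 1 to 3 lower, and 1897 to 2495 higher and 1027 to 1529 lower over all genes. The cause of these shifts was not tested.

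The median log2 fold change of elongation factors was -0.028 as TPM and -0.0070 with read totals, and the median log2 fold change of other initiation factors was -0.017 as TPM. Single genes changed sign as TPM (EIF4G2 -0.24, EIF2S2 -0.14, EIF6 -0.18, EIF4EBP2 -0.22, EIF2B1 -0.13, EIF2S1 -0.075, EIF4G3 -0.067, EEF1E1 -0.098, EIF2B4 -0.022, EEF2KMT -0.18, EIF4E -0.017, EIF4ENIF1 -0.16, EIF5A2 -0.13 and PELO -0.10), with read totals (EIF4G2 -0.22, EIF2S2 -0.12, EIF6 -0.15, EIF4EBP2 -0.20, EIF2B1 -0.11, EIF2S1 -0.054, EIF4G3 -0.045, EEF1E1 -0.072, EIF2B4 -0.0030, EEF2KMT -0.15, EIF4ENIF1 -0.12, EIF5A2 -0.074 and PELO -0.077), after quantile normalization (EIF5A -0.047, EIF1 -0.14, EIF2S3 -0.13, EIF4EBP1 -0.11, EIF4G2 -0.36, EIF2S2 -0.22, EIF6 -0.15, EIF4EBP2 -0.20, EIF2B1 -0.036, EEF1AKMT4 0.026, EEF1AKMT2 0.053 and PABPC1 -0.077) and with median ratios (EIF4G2 -0.062, EIF6 -0.0023, EIF4EBP2 -0.045 and EEF2KMT -0.014). Leaving out 1 library turned the sign of 9 uncalled genes, over the ranges EEF1AKMT2 -0.10 to 0.032, EEF1AKMT4 -0.085 to 0.060, EEF1E1 -0.081 to 0.34, EEF2KMT -0.042 to 0.13, EIF3CL -0.52 to 1.12, EIF4E3 -0.21 to 0.067, EIF4EBP2 -0.0047 to 0.049, EIF4G2 -0.035 to 0.048 and EIF5A2 -0.10 to 0.22.

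With a replicate block 32 factors were higher and 4 lower, and 3429 genes were higher and 2036 lower over all genes. Under it EIF5AL1, PPP1R15B and EIF2AK4 did not pass and EIF3C did. Same-numbered libraries deviated with a correlation of -0.01 over the 2 pairs, so the numbers were not taken as pairs.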
